A study of Arabidopsis thaliana and Medicago truncatula and Solanum lycopersicum with 15 samples.

Results

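The data described here are the open chromatin regions of Arabidopsis thaliana root tips from nuclei prepared in 2 ways, by INTACT and by sucrose sedimentation. They are 4 deposited region lists restricted to chromosomes 1 to 5, chosen by the sample labels alone, with 2 biological replicates of each preparation. Together the 4 lists hold 74493 of the 753507 regions in the 14 lists of the series, which also covers other plant species and 2 root epidermal cell types. All plants were of the strain Col-0 and grew on vertical nutrient agar plates under light and dark cycles, and the terminal 1 cm of the root was harvested. For INTACT, plants carried the transgenes UBQ10p:NTF/ACT2:BirA, in which constitutive promoters drive a nuclear envelope tag (NTF) and the ligase that attaches biotin to it (BirA), so that tagged nuclei of all cell types can be captured on streptavidin beads. For the sucrose preparation, named crude by the submitters, tissue was lysed and nuclei were sedimented through sucrose without capture. The labels do not say separately whether the plants used for sedimentation carried the transgenes. From each sample 50000 nuclei went into the Tn5 transposase reaction. The outside reference is 4 lists from INTACT nuclei of the fully differentiated root zone, 2 from root hair cells tagged with ADF8p:NTF and 2 from non-hair cells tagged with GL2p:NTF, which hold 171542 regions on the same chromosomes.

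ATAC-seq finds DNA that Tn5 can reach, which in plants lies mostly in short stretches beside genes where nucleosomes are absent and regulatory proteins bind. The arms of Arabidopsis chromosomes are gene-rich, whereas the pericentromeres and the knob of chromosome 4 are packed in heterochromatin full of transposons and pseudogenes. A bead-based preparation keeps only tagged nuclei, whereas a sedimented preparation also carries plastids, mitochondria and debris along with the nuclei. The comparison asks whether the simpler preparation gives the same map of open chromatin as the captured nuclei. A list has only the chromosome, start and end of each region, with no height, score or read total, so sequencing depth is unknown and fewer nuclei with a site open cannot be told apart from a site less open in each nucleus or from shallower sequencing.

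The INTACT lists held more and wider regions than the sucrose lists. INTACT replicates 1 and 2 held 23288 and 23690 regions, and sucrose replicates 1 and 2 held 11702 and 15813. The regions covered 8.80 and 8.30 Mb in INTACT and 3.31 and 4.39 Mb in sucrose, out of 119 Mb spanned. Both INTACT values lay above both sucrose values, a log2 ratio of 0.77 for the number of regions and 1.15 for the covered length. With 2 lists against 2, the exact two-sided permutation test gave p = 0.333 for each, the smallest p this design allows, so no comparison of group values below could pass a threshold of 0.05. In log2 units the number of regions had an SD of 0.02 in INTACT and 0.31 in sucrose.

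Region width was bounded below by a different value in each list. The commonest width was also the minimum width, and it was 191 bp in INTACT replicate 1, 211 bp in INTACT replicate 2, 150 bp in sucrose replicate 1 and 140 bp in sucrose replicate 2. It was held by 22.7%, 34.5%, 25.1% and 21.5% of the regions of these lists. Median widths were 307 and 287 bp in INTACT and 235 and 229 bp in sucrose. The INTACT lists therefore cannot contain regions as narrow as the narrowest of the sucrose lists, and this floor is part of every width and covered length given here.

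One library stood apart from the other 3. In INTACT replicate 2, 55.3% of region centres lay inside a protein-coding gene, against 32.1% in INTACT replicate 1 and 31.9% and 33.3% in the sucrose lists. The genome itself has 54.1% of its length inside such genes. Within 1000 bp outside either end of a gene, the flank where promoters and terminators lie, INTACT replicate 2 had 28.0% of its centres, and the other lists had 49.7%, 51.3% and 49.7%. The flank makes up 20.4% of the genome. INTACT replicate 1 thus had the gene-flanking layout of the sucrose lists, while INTACT replicate 2 placed its regions inside genes about as often as genome length would. The difference in gene-body share between preparations was 11.1 percentage points (exact permutation p = 0.667), with an SD of 16.4 in INTACT and 0.941 in sucrose, and it was -0.46 percentage points without INTACT replicate 2. The main comparisons below are given with and without this library where leaving it out changed their sign or order.

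The profile of coverage around gene ends shows the same split at finer scale. In the 100 bp just outside gene ends, coverage relative to the list mean was 3.196 in INTACT replicate 1, 2.11 in INTACT replicate 2, and 3.98 and 3.85 in the sucrose lists. From 1000 to 1100 bp inside a gene it had dropped to 0.29 in INTACT replicate 1 and to 0.24 and 0.26 in sucrose, and stood at 0.86 in INTACT replicate 2. The 3 lists other than INTACT replicate 2 ran together from the gene end inwards, and the sucrose lists were the more sharply peaked at the end itself. The epidermal lists had 43.6% and 43.8% of centres inside genes in the replicates 2 and 55.4% and 53.5% in the longer lists of the replicates 1.

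**Figure D1:**
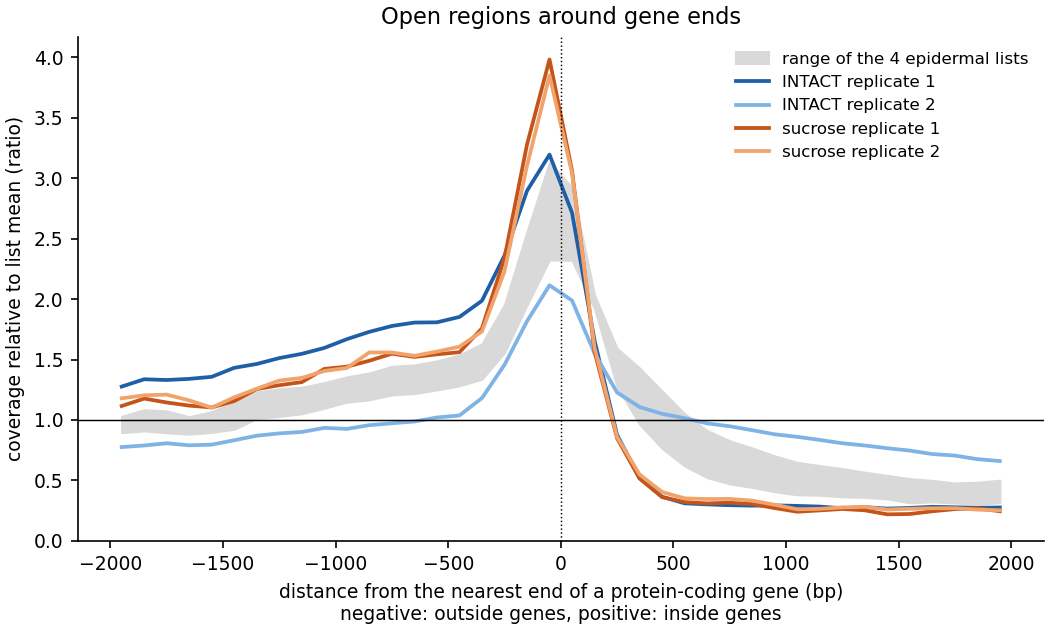
Coverage of 100 bp bins around the ends of protein-coding genes divided by the mean coverage of the list, against distance from the nearest gene end in bp (negative outside genes, positive inside), as 1 line per root tip list and a grey band for the range of the 4 epidermal lists. INTACT replicate 1 and both sucrose lists peak at 3.196 to 3.98 outside the gene end and fall to under 0.30 inside, whereas INTACT replicate 2 peaks at 2.11 and stays at 0.86 at 1000 to 1100 bp.

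All regions of the 4 lists that overlapped by at least 1 bp were joined to 34015 loci, and each locus was scored for the lists it appeared in. All 4 lists shared 8705 loci, which is 25.6% of the loci. Both INTACT lists and neither sucrose list held 1721 loci, 5.06%. Both sucrose lists and neither INTACT list held 107 loci, 0.315%. INTACT replicate 2 alone held 9724 loci, 28.6% and the largest class, and INTACT replicate 1 alone held 6935, 20.4%. Sucrose replicates 1 and 2 alone held 142 and 576 loci. Nearly all that the sucrose lists contain was therefore also in an INTACT list, whereas each INTACT list held many loci found in no other root tip list. The nesting turned with another choice of regions: when each list was cut to its 11702 widest regions, 65.2% of the arm loci in both sucrose lists were in both INTACT lists, and 85.4% of those in both INTACT lists were in both sucrose lists.

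The nesting was closest for INTACT replicate 1. Of the loci of sucrose replicate 1, 96.1% were in INTACT replicate 1, 83.9% in INTACT replicate 2 and 91.5% in sucrose replicate 2. Of the loci of sucrose replicate 2, 92.3% were in INTACT replicate 1, 76.0% in INTACT replicate 2 and 68.2% in sucrose replicate 1. The loci of sucrose replicate 1 were thus found more often in INTACT replicate 1 than in sucrose replicate 2. INTACT replicate 1 also has more loci to be found in, 22925 against 14707. In the other direction, 46.0% and 59.2% of the loci of INTACT replicate 1 were in sucrose replicates 1 and 2, and 55.6% were in INTACT replicate 2. Measured as the base pairs shared by a pair of lists in percent of those in at least 1 of them, the sucrose replicates shared 59.4%, INTACT replicate 1 and sucrose replicate 2 shared 44.4%, and the INTACT replicates shared 37.0%. INTACT replicate 1 and sucrose replicate 1 shared 35.1%, so by this measure sucrose replicate 1 was closer to its own replicate. The pair INTACT replicate 2 and sucrose replicate 1 shared least, 31.3%.

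On each chromosome the sucrose pair shared the most base pairs and the pair INTACT replicate 1 and sucrose replicate 2 the next most. The sucrose pair shared from 57.3% of base pairs on chromosome 5 to 63.5% on chromosome 2, and the INTACT pair from 36.8% on chromosome 2 to 37.5% on chromosome 3. Chromosome 1 held 26.6%, 26.6%, 26.6% and 27.1% of the regions of the 4 lists in the order INTACT 1, INTACT 2, sucrose 1, sucrose 2. Chromosome 3, with 19.7% of the span, held 17.5%, 17.2%, 18.0% and 18.0%. INTACT replicate 2 had the one departure above a percentage point, with 18.9% of its regions on chromosome 2 against 17.2% to 17.6% in the other lists. Chromosome 2 was also the most densely covered in all 4 lists. Of its length, 7.87% and 8.06% were covered in INTACT and 3.205% and 4.09% in sucrose. Chromosome 3 was the least covered, at 6.54%, 6.001%, 2.53% and 3.36%. The chromosome 2 values include its stretch from 3.0 to 3.5 Mb, described below, which sucrose covered 17.1% and 17.2%. The sucrose pair shared 95.7% of base pairs there. Neither the rank of chromosome 2 nor its shared percent was computed without that stretch.

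The epidermal lists, which come from other plants, another root zone and single cell types, served to ask whether a locus had been seen elsewhere. Of the loci common to all 4 root tip lists, 97.5% were in all 4 epidermal lists (Wilson 95% interval 97.1% to 97.8%, which covers counting error only). Loci in both INTACT lists alone were in all 4 epidermal lists in 63.9% of cases, and those in both sucrose lists alone in 79.4% (85 of 107, interval 70.8% to 86.0%), beside 59.4% of all loci. Without INTACT replicate 2 these shares were 53.2% and 80.2%, without INTACT replicate 1 they were 21.8% and 88.3%, and without sucrose replicate 2 their order turned, at 78.3% and 62.2%. Of the loci seen in INTACT replicate 1 alone, 50.7% were in all 4 epidermal lists and 16.7% in none. Of those seen in INTACT replicate 2 alone, 13.3% were in all 4 and 44.9% in none. The epidermal lists are INTACT lists too and are longer, so they share the preparation with one side of the comparison only.

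The loci of INTACT replicate 2 alone differed in genomic position from those of INTACT replicate 1 alone and those of all 4 lists. They lay inside protein-coding genes in 77.7% of cases, within the flank in 5.18%, and in gene-poor windows in 18.0%. On the chromosome arms 89.1% of them were inside genes. Those of INTACT replicate 1 alone lay inside genes in 31.7%, in the flank in 46.8%, and in gene-poor windows in 2.78%. Loci of all 4 lists had 32.6% inside genes and 51.6% in the flank. The position was not limited to unshared loci. Loci in INTACT replicate 2 and sucrose replicate 2 only, 367 in number, had 72.2% inside genes and 17.4% in the flank. The 86 loci in INTACT replicate 2 and sucrose replicate 1 only had 74.4% and 18.6%. Loci of INTACT replicate 2 alone appeared in 46.8% and 48.8% of cases in the 2 longer epidermal lists (non-hair replicate 1 and hair replicate 1) and in 18.4% and 19.9% in the 2 shorter ones. Their part in any result on the INTACT group was measured by leaving the library out, and the cause of the difference between the INTACT replicates was not tested.

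Annotated gene classes other than protein-coding genes gave a further view of this. A region met a pseudogene or its 100 bp margin for 24.6% of 3917 pseudogenes in INTACT replicate 2, against 3.78% in INTACT replicate 1 and 2.20% and 2.91% in sucrose. Of these pseudogenes 70.0% lie in gene-poor windows. For the 625 tRNA genes, which RNA polymerase III transcribes, the shares were 53.6%, 39.8%, 42.2% and 46.1% in the order INTACT 1, INTACT 2, sucrose 1, sucrose 2. For 82 genes of spliceosomal snRNAs they were 51.2%, 48.8%, 46.3% and 47.6%. Genes of microRNA precursors stood lower, at 18.1% and 14.1% of 326 in INTACT and 7.67% and 7.36% in sucrose. For 287 snoRNA genes they were 23.3%, 17.8%, 12.2% and 12.9%. The sucrose and INTACT lists were thus closer at tRNA and snRNA genes than at microRNA and snoRNA genes, and protein-coding genes were met in 47.8% and 45.7% in INTACT and 28.1% and 35.7% in sucrose.

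Width separated the shared regions from the unshared. Among regions of INTACT replicate 1 at the minimum width, 6.69% were in both sucrose lists. The share rose to 27.2% for wider regions under 300 bp, 53.8% from 300 up to 450 bp, 72.7% from 450 up to 600 bp, 83.0% from 600 up to 1000 bp and 95.2% at 1000 bp or more. INTACT replicate 2 went through 13.9%, 27.6%, 50.01%, 68.3%, 79.1% and 87.5% in the same classes. Both INTACT lists thus had narrow regions that sucrose nuclei rarely gave and wide regions that they nearly always gave. Of the regions of sucrose replicate 1 at its minimum width, 57.2% were in both INTACT lists, and of those at 1000 bp or more all 71 were.

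**Figure D2:**
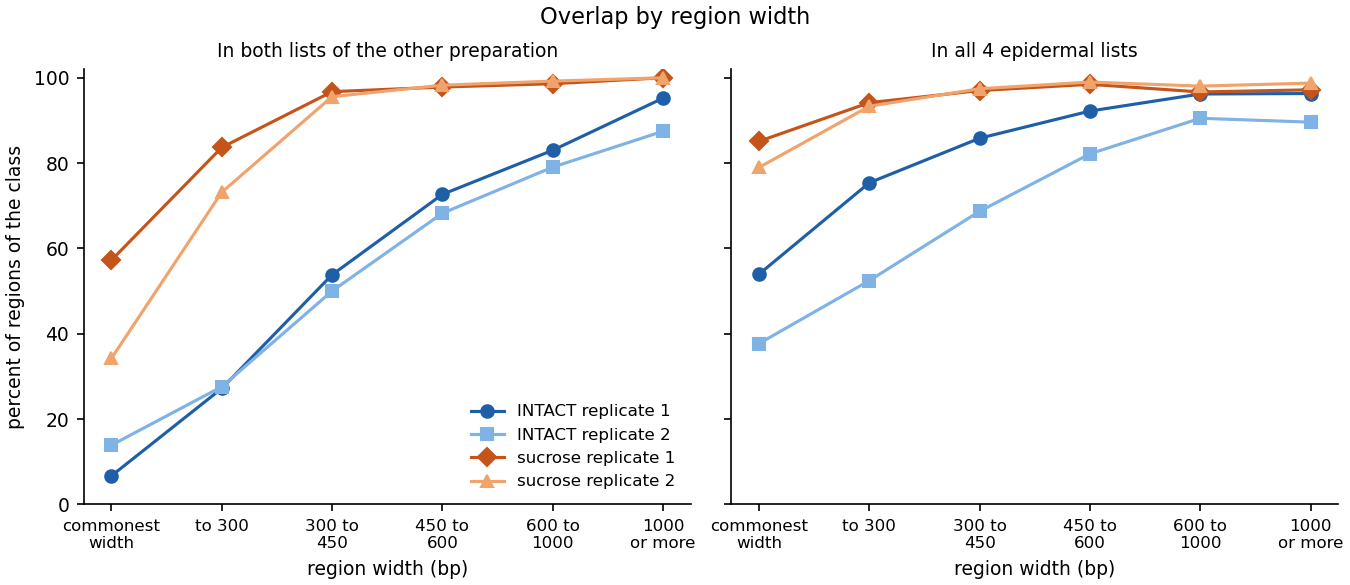
Percent of regions found in both lists of the other preparation (left) and in all 4 epidermal lists (right), against region width in bp in 6 classes starting with the commonest (minimum) width, 1 line per root tip list. For INTACT replicate 1 the share in both sucrose lists climbs from 6.69% at the minimum width to 95.2% at 1000 bp or more, and every class of the sucrose lists lies above the same class of the INTACT lists in both panels.

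The 2 INTACT lists differed by width in another respect. In INTACT replicate 1 the share of regions inside genes fell from 40.8% at the minimum width to 15.6% at 1000 bp or more. In INTACT replicate 2 it was 61.9% at the minimum width, 45.0% from 600 up to 1000 bp and 52.9% at 1000 bp or more. The gene-body placement of INTACT replicate 2 was thus present in each width class and not in the narrowest regions alone. Its regions of 1000 bp or more lay in gene-poor windows in 23.9% of cases, against 32.4% and 25.0% in the sucrose lists, which had 71 and 80 such regions, and 9.33% in INTACT replicate 1.

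Where both preparations found a region, they placed it at nearly the same point. Of the 8705 loci in all 4 lists, 7400 (85.0%) had exactly 1 region in each list. The median distance between centres was 19 bp between the sucrose lists, 33 bp between the INTACT lists, and 24.5 to 29 bp across preparations. Median widths at these loci were 433 and 378 bp in INTACT and 264 and 294 bp in sucrose, a median ratio of 1.40. Both INTACT regions were wider than both sucrose regions at 73.0% of loci, and the reverse held at 1.34%. The log2 width difference was 0.49 (exact permutation p = 0.333, the smallest possible) and 0.55 without INTACT replicate 2. The ratio was 1.40 on arms and 1.45 in gene-poor windows, and 1.43 inside genes and 1.38 in the flank, so the widening was of similar size in these places. At the matched loci 13.3% of the regions of INTACT replicate 2 and 15.9% of those of sucrose replicate 1 were at the minimum width of their list.

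The chromosomes were next divided into 240 windows of 500 kb, of which the last on each chromosome was shorter. The 39 windows with fewer than 131 protein-coding genes per Mb, which is 0.5 of the median window's 262, are called gene-poor here. They hold 16.4% of the span, contain most of the pericentromeres and the knob of chromosome 4, and the other 201 windows are called arms. By this count the window of chromosome 2 from 3.0 to 3.5 Mb is an arm window, although gene-poor windows lie on both sides of it. Gene-poor windows held 4.46% of the regions of INTACT replicate 1, 10.8% of INTACT replicate 2, and 5.02% and 5.34% of the sucrose lists. The arms were covered 3.74 times as densely as the gene-poor windows in INTACT replicate 1, 1.56 times in INTACT replicate 2, and 2.86 and 2.90 times in sucrose. The preparations differed by 2.44 percentage points in the gene-poor share (exact permutation p = 1), with an SD of 4.47 between INTACT replicates and 0.227 between sucrose replicates. Without INTACT replicate 2 the difference was -0.72 percentage points, so its sign followed that library.

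**Figure D3:**
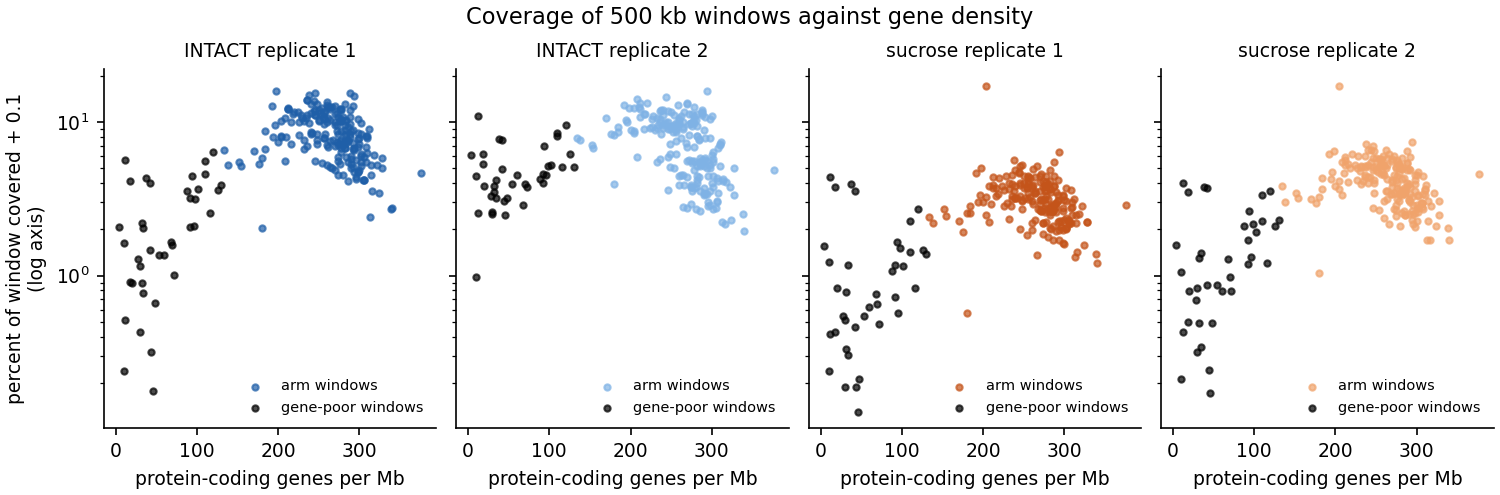
Percent of each 500 kb window covered by open regions plus 0.1 (log axis) against protein-coding genes per Mb, 1 panel per root tip list, with the 39 gene-poor windows in black and the 201 arm windows in colour. The arms were covered 3.74 times as densely as the gene-poor windows in INTACT replicate 1 and 2.86 and 2.90 times in sucrose. In INTACT replicate 2 they were covered only 1.56 times as densely. Some gene-poor windows overlap the arm windows in every list.

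Within the gene-poor windows the preparations shared what the sucrose lists held. Of the loci in both sucrose lists there, 93.5% (457 of 489) were in both INTACT lists, against 86.4% on the arms. Of the loci in both INTACT lists, 62.4% were in both sucrose lists in gene-poor windows and 68.6% on the arms. Without INTACT replicate 2 the first difference was nearly lost. Of the loci in both sucrose lists, 97.3% (497 of 511) in gene-poor windows and 98.1% (9387 of 9570) on arms were in INTACT replicate 1. The second order turned: 48.0% of the gene-poor and 42.4% of the arm loci of INTACT replicate 1 were in both sucrose lists. Sucrose replicate 2 and INTACT replicate 1 shared 56.0% of their base pairs in gene-poor windows, more than the 32.0% of the INTACT replicates. The 2530 gene-poor loci of INTACT replicate 2 were in INTACT replicate 1 in 28.9% of cases, and 59.1% of them were in no epidermal list. INTACT replicate 1 had 996 such loci, of which 11.5% were in no epidermal list. Centres inside genes were similar in these windows, from 25.2% to 28.0% in the 4 lists, whereas on the arms INTACT replicate 2 had 58.6% and the others 32.3% to 33.6%.

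The widest loci of the gene-poor windows were nearly the same in all lists. The widest, on chromosome 2 from 3618331 to 3624073 (TAIR10 numbering, counted from 1), had regions of 5725, 5743, 5605 and 5591 bp in the order INTACT 1, INTACT 2, sucrose 1, sucrose 2, and overlaps AT2G08986. The next, on chromosome 4 from 3950421 to 3956033, measured 5576, 5587, 5480 and 5500 bp, with the nearest protein-coding gene 25983 bp away. Another, on chromosome 3 from 14093246 to 14097595, measured 4326, 4292, 4328 and 4086 bp and touches ARP6, which encodes an actin-related subunit of the chromatin remodelling complex that deposits the histone variant H2A.Z. All 3 were in every epidermal list. These 3 domains, picked for their mean width over all 4 lists, were of nearly equal width in the preparations, unlike the narrower matched loci. Wide loci of the arms were not all so. The locus on chromosome 5 from 21316828 to 21320664 had 2948 and 3837 bp in INTACT and 1840 and 1745 bp in sucrose.

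Loci seen in both INTACT lists alone in gene-poor windows numbered 117, and the 5 of greatest mean width were in no epidermal list. The first, on chromosome 1 from 15199985 to 15201266, had 448 bp in INTACT replicate 1 and 1282 bp in INTACT replicate 2, and the second, on chromosome 5 from 11821723 to 11822576, had 774 and 854 bp. On the arms, where 1604 loci were in INTACT alone, the widest was on chromosome 5 from 21036086 to 21037463 and overlaps AT5G51780, with 1315 and 422 bp and regions in 3 epidermal lists. The second, on chromosome 1 from 21653255 to 21654448, overlaps ZF14, a transporter of the MATE efflux family, with 639 and 1090 bp and regions in all 4 epidermal lists. The other 3 of the 5 widest overlap AT3G43670, AT1G34420 and AT3G44690. The 2 INTACT lists gave unequal widths at most of these loci, and the wider of them was usually INTACT replicate 2.

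The sucrose-only loci on the arms, 100 in all, had their 5 widest members in a single place. They lay on chromosome 2 between 3244602 and 3475231, in the window with gene-poor neighbours described above, with regions of 628 and 601 bp for the widest, from 3404629 to 3405261 in AT2G07643, and 573 and 611 bp for the second, from 3474621 to 3475231 in AT2G07827. From 2 to 4 epidermal lists had regions at them. This part of chromosome 2 is known for a long insertion of mitochondrial DNA, and reads of the organelle and of the insertion cannot be told apart in the lists. The window from 3.0 to 3.5 Mb was covered 10.04% and 12.2% by INTACT and 17.1% and 17.2% by sucrose, a relative log2 difference of -1.70 (SE 0.26, limma adjusted p = 0.46). The epidermal lists covered it from 9.68% to 10.6%. It was the only one of the 240 windows that sucrose covered more than 10% in either list, and the only one where both sucrose lists had the higher absolute coverage. All 4 root tip lists also hold regions on the mitochondrial sequence itself, from 115 to 132 a list. The widest locus of all 4 lists on the arms was in the same window, on chromosome 2 from 3330766 to 3335943 in AT2G07633, with 4295 and 4396 bp in INTACT and 5169 and 5178 bp in sucrose. Sucrose-only loci in gene-poor windows numbered 7, and the widest, on chromosome 2 from 4224099 to 4224356, had 240 and 255 bp.

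Window coverage was then compared after removing the overall difference in covered length. The median window was covered 7.34% and 6.21% in INTACT and 2.77% and 3.60% in sucrose, a shift of 1.07 on the log2 scale, and each list was centred on its own median. On log2 of percent covered plus 0.1, limma with Benjamini-Hochberg adjustment called 0 windows higher in INTACT and 0 higher in sucrose, 0% of windows in each direction. At unadjusted p under 0.05 there were 4 windows (1.67%) higher in INTACT and 15 (6.25%) higher in sucrose. Leaving out either INTACT list leaves a lone INTACT list, which the fit assumes to vary as the sucrose lists do, so only effect sizes are given here. Without INTACT replicate 2, the log2 difference was -1.96 in the chromosome 2 window of the mitochondrial insertion. It was -0.95 in the gene-poor window of chromosome 3 from 13.0 to 13.5 Mb, where INTACT replicate 1 and both sucrose lists covered under 0.1%. That window was not the next most negative. The gene-poor window of chromosome 1 starting at 14.5 Mb had -1.10, and other gene-poor windows also lay below -0.95.

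Over all windows INTACT replicate 1 was more closely correlated with the sucrose lists than with INTACT replicate 2. Pearson's r of log2 coverage over the 240 windows was 0.97 with sucrose replicate 2, 0.94 with sucrose replicate 1 and 0.72 with INTACT replicate 2. The sucrose lists had r = 0.98 with each other. With the mean of the epidermal lists r was 0.90 for INTACT replicate 1, 0.84 and 0.87 for sucrose and 0.44 for INTACT replicate 2. On the arms alone INTACT replicate 1 had r = 0.86 with INTACT replicate 2, 0.88 with sucrose replicate 2 and 0.85 with sucrose replicate 1, so that order did not hold there. Neighbouring windows share gene density and chromosome position, and these values are descriptions.

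Groups of lists did not overlap in 57 windows where both INTACT lists were relatively higher (23.8%) and in 38 where both sucrose lists were (15.8%). Of these, 2 and 0 were gene-poor. The 38 windows with higher sucrose values gathered at the chromosome ends. Among the 22 windows within 1 Mb of an end, both sucrose lists were above both INTACT lists in 20, and the reverse occurred in 0. Among the 54 arm windows more than 8 Mb from an end, sucrose was above in 1 and INTACT in 19.

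Relative coverage within 1 Mb of the ends was -0.58 in INTACT replicate 1, -0.85 in INTACT replicate 2, -0.17 in sucrose replicate 1 and -0.17 in sucrose replicate 2, in log2 units from the median window. Both INTACT lists were lower there than both sucrose lists, with a difference of group means of -0.55 (exact permutation p = 0.333, the smallest possible), and the difference was -0.41 without INTACT replicate 2. It shrank to -0.21 from 1 to 2 Mb and -0.12 from 2 to 4 Mb (-0.08 without the window of the insertion), and was positive at 0.13 from 4 to 8 Mb and 0.21 beyond 8 Mb. The order of the groups was the same at 10 of 10 chromosome ends, with differences from -0.33 at the start of chromosome 5 to -0.73 at the end of chromosome 3. The start of chromosome 3 was the poorest end in all 4 lists, at -1.28, -1.57, -1.06 and -0.97. In absolute terms the end windows were covered 5.12% and 3.58% by INTACT and 2.62% and 3.36% by sucrose. INTACT replicate 2 thus covered them about as much as sucrose replicate 2 did, although it covered 8.30 Mb in all against 4.39 Mb.

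**Figure D4:**
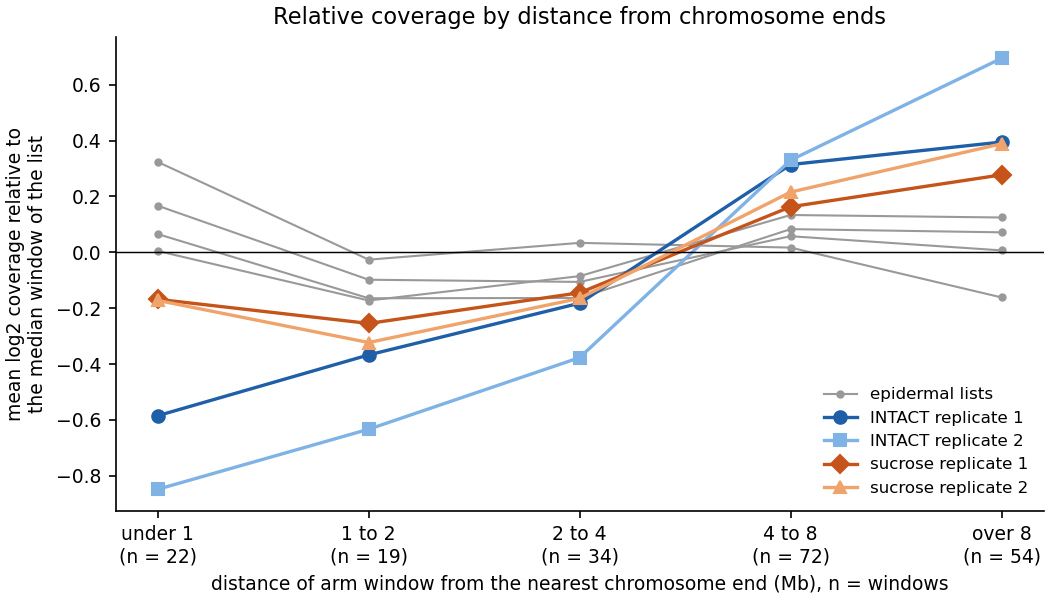
Mean log2 coverage of arm windows relative to the median window of the list, against distance from the nearest chromosome end in Mb in 5 classes with the number of windows, 1 coloured line per root tip list and grey lines for the 4 epidermal lists. Within 1 Mb of an end the sucrose lists sit at -0.17, the INTACT lists at -0.58 and -0.85, and the epidermal lists at 0.005 to 0.32, and the order of INTACT and sucrose is turned beyond 4 Mb.

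The epidermal lists, though made by INTACT, were not low at the ends. Their relative coverage there was 0.32 and 0.005 in the non-hair lists and 0.07 and 0.17 in the hair lists. The end windows had a mean of 134 protein-coding genes, against 139 from 1 to 2 Mb, 140.2 from 2 to 4 Mb, 131 from 4 to 8 Mb and 120 beyond 8 Mb. On the arms coverage ran against gene density in all 4 root tip lists, with r = -0.28 and -0.50 in INTACT and -0.22 and -0.31 in sucrose over 201 windows. The part of gene density in the pattern at the ends was not tested. Among the windows where both sucrose lists were above both INTACT lists, the largest relative excess after that of the chromosome 2 insertion was on chromosome 3 from 22.5 to 23.0 Mb (-0.90, SE 0.27), chromosome 2 from 19.0 to 19.5 Mb (-0.85, SE 0.25), chromosome 5 from 26.5 Mb to its end (-0.70, SE 0.18) and chromosome 4 from 18.5 Mb to its end (-0.68, SE 0.20). In each of these 4 the limma adjusted p was 0.46. The last of them is much shorter than 500 kb, since the span of chromosome 4 ends at 18.585 Mb. Among the windows where both INTACT lists were above both sucrose lists, the largest relative excess in INTACT was on chromosome 2 from 5.5 to 6.0 Mb (0.78, SE 0.47), chromosome 5 from 13.5 to 14 Mb (0.72, SE 0.43) and chromosome 2 from 6.5 to 7.0 Mb (0.55, SE 0.36), with limma adjusted p = 0.64 in these 3, followed by chromosome 2 from 10.5 to 11 Mb (0.54, SE 0.17, limma adjusted p = 0.54) and from 11 to 11.5 Mb (0.49, SE 0.14, limma adjusted p = 0.46). In the first 3 INTACT replicate 2 had the higher of the INTACT values, 5.04% against 2.45% in the window from 5.5 to 6.0 Mb, and without it the 3 differences were 0.16, 0.17 and 0.08. The other 2 were 0.38 and 0.44 without it. Without the same library the 4 sucrose windows named after the insertion gave -0.57, -0.55, -0.52 and -0.84 in the order above.

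Genes were then compared by the open sequence within 1000 bp outside either end, without regard to strand, since the annotation used gives none. Of 27444 protein-coding genes, 59.9% and 49.8% had a flanking region in INTACT and 37.1% and 46.0% in sucrose. All 4 lists had one at 8808 genes (32.1%), and no list did at 9050 (33%). Both INTACT lists and neither sucrose list had one at 1327 genes (4.84%), and both sucrose lists and neither INTACT list at 50 (0.182%). Without INTACT replicate 2, INTACT replicate 1 and neither sucrose list had one at 3866 genes. After every list was cut to 11702 regions by width, 382 genes were in INTACT alone and 761 in sucrose alone, so the order of the preparations turned.

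Housekeeping genes were open in both preparations. Of 9 genes, 8 (88.9%, against 32.1% of all genes) had a flanking region in all 4 lists and the last, PP2AA3, a scaffold subunit of protein phosphatase 2A, had 278 bp in INTACT replicate 1 and 182 bp in sucrose replicate 2 and none in the other two. The glycolytic gene GAPC2 had 851, 425, 207 and 336 bp in the order INTACT 1, INTACT 2, sucrose 1, sucrose 2. The actin gene ACT8 had 894, 794, 719 and 769 bp. The promoters of the tag transgenes belong to genes of this group. UBQ10, which encodes polyubiquitin, had 1099, 1302, 1000 and 1000 bp of open flank, and ACT2, another actin, had 1150, 704, 977 and 830 bp. Copies of these promoters in the transgene and at the native gene cannot be told apart in the lists.

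**Figure D5:**
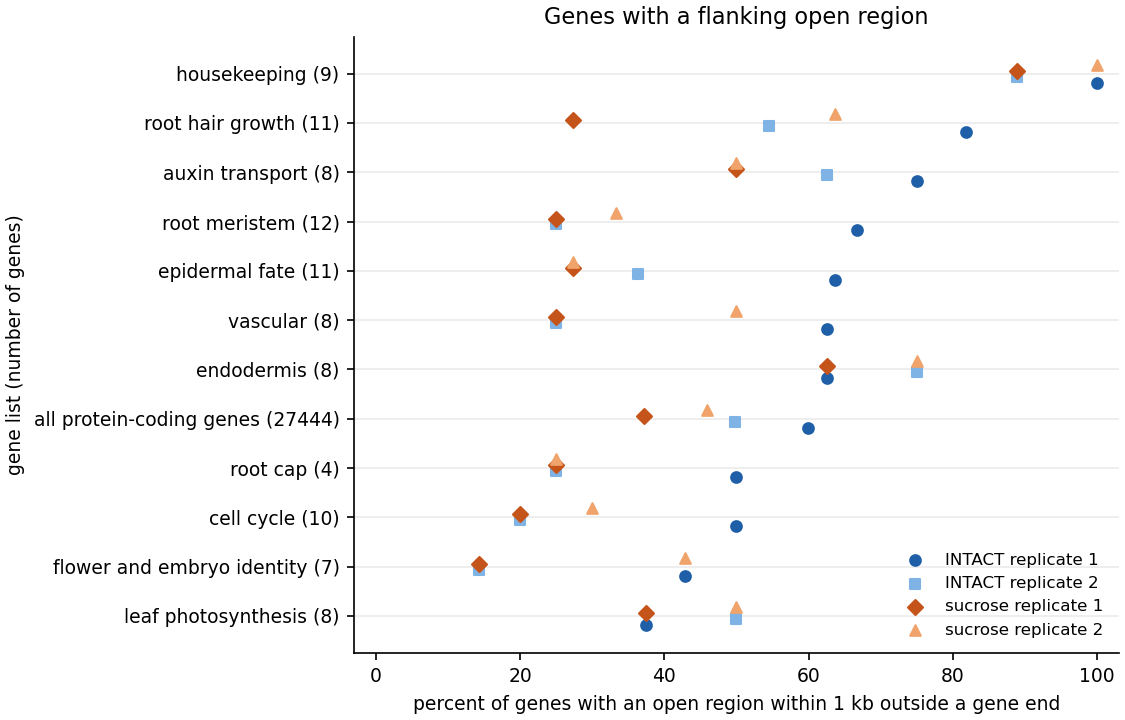
Percent of the genes of each list with an open region within 1 kb outside a gene end, 1 symbol per root tip list, with the number of genes in brackets and all 27444 protein-coding genes as reference. Housekeeping genes are at 88.9% or 100% in every list, and INTACT replicate 1 lies to the right of the other lists over all genes (59.9%) and in 7 of the groups, meristem, epidermal fate, root hair, auxin transport, cell cycle, vascular and root cap.

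Of 12 regulators of the root meristem, 8 (66.7%) had a flanking region in INTACT replicate 1, 3 (25%) in INTACT replicate 2, and 3 (25%) and 4 (33.3%) in sucrose, where all genes had 59.9%, 49.8%, 37.1% and 46.0%. All 4 lists had one at 2 of the 12 (16.7%, against 32.1% of all genes). PLT2, a transcription factor that maintains the stem cell niche, had 533, 284, 535 and 362 bp, and JKD, a zinc finger protein of the ground tissue, had 460, 239, 182 and 226 bp. SHR, a mobile regulator of ground tissue identity, had 382 bp in INTACT replicate 1 alone, and its partner SCR had 191 bp, the minimum width, also in that list alone. These 2 were chosen for mention after their values were seen. No meristem gene was in both INTACT lists alone or in both sucrose lists alone.

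Over all the gene groups, 4 genes had a flanking region in INTACT alone: MYB23, TRY, SHV2 and PIN7. Of 11 regulators of epidermal fate, 2 (18.2%, against 32.1% of all genes) had a flanking region in all 4 lists and 2 (18.2%, against 4.84%) in INTACT alone. TTG1, a WD40 protein of the complex that sets non-hair fate, had 250, 225, 161 and 195 bp, and TTG2, a WRKY factor downstream of it, had 356, 300, 306 and 293 bp. MYB23, a MYB factor of non-hair fate, had 404 bp in INTACT replicate 1, 5 bp in INTACT replicate 2 and none in sucrose. TRY, an inhibitory MYB of hair fate, had 191 and 7 bp in INTACT and none in sucrose. In both the flank was barely touched in INTACT replicate 2. MYB23 had regions inside the gene in all 4 lists, of 567, 264, 150 and 140 bp, sucrose included. Inside TRY the lists had 294, 0, 213 and 140 bp in the same order, so both sucrose lists had regions there. GL2, whose promoter marks non-hair cells in the reference lists, had no flanking region in any root tip list, and its flank was open over 1870 and 1162 bp in the non-hair lists and 1134 and 697 bp in the hair lists.

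Of 11 genes of root hair growth, 9 (81.8%) and 6 (54.5%) had a flanking region in INTACT and 3 (27.3%) and 7 (63.6%) in sucrose. RHD6, a basic helix-loop-helix factor that starts hair formation, had 846, 447, 424 and 422 bp, and RSL4, a factor of hair elongation acting after it, had 189, 200, 113 and 175 bp. SHV2, which encodes a COBRA-like protein of hair cell walls, was in INTACT alone, with 721 and 411 bp against none in either sucrose list, and 268 to 608 bp in the epidermal lists. It was the only gene of the lists with a flanking region in INTACT alone and more than 10 bp of it in INTACT replicate 2. ADF8, an actin-depolymerizing factor whose promoter tags hair cells, had 99 bp in INTACT replicate 1, 56 bp in sucrose replicate 2 and none in the other two. Among 8 auxin transporters the carriers AUX1 (338, 264, 304 and 276 bp) and EIR1, also known as PIN2 (369, 211, 231 and 303 bp), were in all 4 lists. The efflux carrier PIN7 had a flanking region in INTACT alone, with 244 and 4 bp. Inside PIN7 there were 239 and 976 bp in INTACT replicates 1 and 2, and 0 and 224 bp in sucrose replicates 1 and 2.

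Other tissue groups gave no gene with a flanking region in 1 preparation alone. Of 8 endodermal genes 3 were in all 4 lists, among them CASP1, a membrane protein of the Casparian strip, with 378, 715, 260 and 428 bp. The groups of vascular (2 of 8), cell cycle (2 of 10) and root cap genes (1 of 4) each had some members in all 4 lists, as did leaf photosynthesis genes (3 of 8), RBCS1A among them, and genes of flower and embryo identity (1 of 7). These are shares of 14.3% to 37.5%, beside 32.1% of all genes. Expression was not measured, and an open flank does not stand for it. No gene in any of the lists had a flanking region in both sucrose lists alone, beside 0.182% of all genes. Inside the gene, VND7 of the vascular group (573 and 211 bp) and RCA of leaf photosynthesis (191 and 534 bp) had regions in INTACT alone. Over all genes that held for 5.67%.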

How the data were processed

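The deposited files are region lists (BED) that give each region's chromosome, start and end in base pairs (unit other), with no count or score. Per the submitters' processing notes, Bowtie2 and HOMER were used and the build was TAIR10. No versions are given, and the list names carry a HOMER setting of 150. How reads were filtered or pooled is not given in the sources used here. Depth is unknown. Groups came from the labels. The members, gene lists and comparisons were chosen with earlier results of these data known. Gene positions and names came from RefSeq's TAIR10.1 table (27444 protein-coding genes on chromosomes 1 to 5), which gives no strand. As a check that its numbering fits the lists, 32.1% of region centres of INTACT replicate 1 lay inside genes, against 47.8% and 48.3% with regions shifted by 500 bp either way. The planned promoter results were replaced by gene bodies and flanks of 1000 bp at either end. Genes named are those of the tag promoters, those with a flanking region in 1 preparation alone and up to 3 per list open in all 4 lists, in locus order. VND7 and RCA were chosen for mention after their values were seen. Named loci are the widest of those in 1 preparation alone. Loci of all 4 lists, chromosome ends and gene classes were added after the values were seen.

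Loci are joined overlapping regions (at least 1 bp). An exact two-sided permutation test over the 4 lists (6 assignments) was run on each group difference. Windows of 500 kb were tested with limma 3.58.1 in R 4.3.3 on log2(percent covered + 0.1), centred on each list's median. The fit was also run on simulated data with the same spread in all windows and lists. Spread differs between windows and lists here, so that run does not show how the fit behaves on them. Percentages carry Wilson 95% intervals for counting error only. Scripts ran in Python 3.11.15 with pandas 2.3.3, NumPy 2.4.6 and SciPy 1.17.1. Alternatives were minimum width, equal numbers of the widest regions, joining, overlap, the definition of gene-poor windows, window size, centring, pseudocount, a replicate block and leaving out each list. The genomic DNA control was not analysed here.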

Additional observations from a re-analysis of the deposited data

Results flagged for a closer look

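Regions on the mitochondrial sequence, which no comparison of the report uses, numbered 132 in INTACT replicate 1, 120 in INTACT replicate 2, 115 in sucrose replicate 1 and 115 in sucrose replicate 2. They were listed for attention because they are a signal outside chromosomes 1 to 5, in data the comparisons leave out. The 4 epidermal lists hold 0 regions on that sequence. Both INTACT lists were above both sucrose lists, with no test. All 4 root tip lists also hold 2 regions each on the chloroplast sequence, and the epidermal lists hold 0. Whether organelle sequences were removed from the epidermal lists before deposit is not given in the sources used here.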

How the results depend on the processing

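Depth is unknown, the width floor differs between lists, and with 2 lists a group the exact permutation test cannot go below p = 0.333. Of 89 values under alternatives that keep every list, 62 stayed on their side or within their interval and 27 moved, with no single value changing sign, although with equal numbers the order of the preparations turned in both directions of overlap and in the genes in 1 preparation alone. Of 76 values with a list left out, 2 reversed, both without INTACT replicate 2: the gene-poor share (-0.72 percentage points) and the gene-body share (-0.46). The cause was not tested. The planned promoter results, with their alternatives, were not run because the annotation gives no strand, and equal numbers fix the difference in region number at 0, so it is not given.

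With regions of at least 300 bp, sucrose loci met by INTACT were 92.9% on arms and 96.3% in gene-poor windows, INTACT loci met by sucrose were 43.8% and 39.5% there and 70.6% when wide, INTACT-only and sucrose-only loci in all 4 epidermal lists were 92.8% and 93.9%, and genes with a flank region in INTACT alone and sucrose alone were 2476 and 27. No narrow loci are left under that setting. With each list cut to its 11702 widest regions the nesting was turned: 65.2% and 73.7% of sucrose loci were met by INTACT, 85.4% and 83.5% of INTACT loci by sucrose (0% of narrow ones, 0 of 1, and 93.4% of wide ones), the shares in all 4 epidermal lists were 78.4% and 95.9%, and the genes in 1 preparation alone were 382 and 761. With regions under 500 bp apart joined, 88.0% of sucrose loci on arms were met by INTACT, and INTACT loci were met by sucrose in 72.6% on arms, 66.6% in gene-poor windows, 39.9% when narrow and 85.8% when wide, with 67.1% of INTACT-only loci in all 4 epidermal lists. Defining gene-poor windows as those within 1.5 Mb of the gene-poorest window gave 69.6% of INTACT loci met by sucrose there. Without centring, limma called 185 windows higher in INTACT and 0 in sucrose. That fit keeps the overall log2 shift of 1.07 in every window. It also took 1 spread for all windows, with 480 degrees of freedom against 3.92 in the main fit. Its calls therefore restate the shift between 2 and 2 lists and are not separate results for single windows.

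Leaving out 1 list at a time gave ranges of 72.5% to 98.1% (arms) and 79.8% to 97.3% (gene-poor) for sucrose loci met by INTACT, and of 40.3% to 84.2% (arms), 18.4% to 81.3% (gene-poor), 17.2% to 63.2% (narrow) and 80.7% to 97.7% (wide) for INTACT loci met by sucrose. INTACT-only loci in all 4 epidermal lists ranged from 21.8% to 78.3%, and sucrose-only loci from 62.2% to 88.3%. Genes in INTACT alone ranged from 1567 to 3866 and in sucrose alone from 100 to 797. Windows called higher ranged from 0 to 68 in INTACT and 0 to 39 in sucrose. Both upper window counts came from the fit without INTACT replicate 1, where INTACT replicate 2 was the lone INTACT list. That fit assumes the lone list to vary as the sucrose lists do. These counts are therefore not results for single windows. The gene-poor difference ranged from -0.72 to 5.60 and the gene-body difference from -0.46 to 22.7 percentage points.

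The replicate numbers were not shown to pair the samples, since deviations of same-numbered lists from their group means had r = 0.16 over 240 windows, 0.44 over the 201 arm windows and -0.15 over the 39 gene-poor windows, a single contrast with 2 numbers. With the replicate block, limma again called 0 windows in either direction, and the permutation within replicate numbers (4 assignments) could not go below p = 0.5.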
